A study of Mus musculus with 19 samples.

Results

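The Ddx and Dhx genes, which encode the DEAD-box and DEAH-box RNA helicases, were followed in hippocampal slices of wild-type mice, by RNA-seq and by ribosome profiling. Members were every row of both count tables whose symbol starts with Ddx or Dhx and a digit, which gave 54 of 20436 genes, 38 Ddx and 16 Dhx. Slices of male wild-type mice, 28 to 42 days old by the labels, received 5 min of DHPG, an agonist of group I metabotropic glutamate receptors, at 100 µM in artificial cerebrospinal fluid (ACSF), or 5 min of ACSF alone (basal). All slices, basal ones included, were then placed in ACSF with cycloheximide, which stalls elongating ribosomes, at 100 µg/ml in the cold. RNA-seq counts every RNA of a gene, and ribosome profiling counts ribosome-protected fragments (RPFs), the pieces of mRNA covered by a ribosome. There were 4 basal and 5 DHPG RNA libraries and 5 basal and 5 DHPG RPF libraries, and slices of several mice were pooled in each replicate. DHPG was compared with basal within replicate numbers. The edgeR p-values of that comparison therefore measure how the change varied between pooled replicates, not between single mice. Slices hold every cell type of the hippocampus, CA3 included, and fewer cells of a type cannot be told apart from less RNA per cell.

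RNA helicases use ATP to separate paired RNA strands and to strip proteins from RNA. DEAD-box proteins clamp onto a short stretch of RNA and pull it apart locally, whereas DEAH-box proteins travel along a strand from its 3′ end. Almost every step in the life of an RNA needs members of these families: spliceosome assembly and release, ribosome maturation in the nucleolus, export through the nuclear pore, scanning by initiating ribosomes and storage of silent mRNA in granules. In neurons, several of them (Ddx1, Ddx3x, Ddx5, Ddx6 and Dhx36 among them) are known components of the RNA granules carried into dendrites. Both families are named after motif II of the helicase core, in the single-letter code of its amino acids.

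The coding bases around motif II are shown for the members the results turn on, because they show both the box that names the families and how far near-identical paralogs can be told apart by a footprint of about this length. They were read from GENCODE vM21 transcripts (mm10), 5′ to 3′ on the coding strand, and capitals mark the codons of the box.
Ddx3x: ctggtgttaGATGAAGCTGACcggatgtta
Ddx3y: ttagtattgGATGAAGCTGATaggatgctg
Ddx5: cttgtccttGATGAAGCTGATaggatgctt
Ddx17: cttgtgttgGATGAGGCTGACcggatgctt
Ddx6: atagtgctaGATGAGGCAGATaaattgttg
Ddx39b: tttattttgGACGAGTGTGACaagatgctt
Ddx19a and Ddx19b: tttgttctgGACGAGGCTGATgtgatgata
Dhx9: gttattgtgGATGAAATTCATgaaagagat
Dhx36: attgtacttGATGAAATTCATgaaaggaat
These stretches lie at chrX:13289399-13289428 on the plus strand (Ddx3x), chrY:1265940-1265969 on the minus strand (Ddx3y), chr11:106785184-106785213 on the minus strand (Ddx5), chr15:79538866-79538895 on the minus strand (Ddx17), chr17:35247081-35247110 on the plus strand (Ddx39b), chr8:110979077-110979106 on the minus strand (Ddx19a), chr8:111011326-111011355 on the minus strand (Ddx19b), chr1:153468880-153468909 on the minus strand (Dhx9) and chr3:62493845-62493874 on the minus strand (Dhx36). All of these are coding exons, and the Ddx6 stretch crosses a junction between coding exons, from 44626468 to 44627652 on the plus strand of chromosome 9. Ddx3x and Ddx3y differed at 8 of the 30 bases and Ddx5 and Ddx17 at 6, whereas Ddx19a and Ddx19b were identical over all 30. In frame, the letters DEAD were found in 29 of 38 Ddx coding sequences and in 1 of 16 Dhx coding sequences (Dhx29), against 0.792% of the 20190 coding sequences searched. The letters DEAH were found in 8 of 16 Dhx members and in Ddx11, against 0.367%. DECD stood in Ddx39, in Ddx39b and, beside DEAD, in Ddx17, and DEIH in Dhx9 and Dhx36. None of the 4 spellings was found in 6 Ddx and 5 Dhx members, the latter being Dhx30, Dhx32, Dhx34, Dhx57 and Dhx58. Ddx26b, which GENCODE names Ints6l, carries the letters and the symbol, but its product is known as a relative of an Integrator subunit.

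Because only uniquely mapped reads were kept, each member's coding sequence was searched for 30-base windows that also occur in another annotated locus. No window was shared in 41 of 54 members, and over 5% of windows were shared in 8. Shares mainly with a locus annotated as a predicted gene were 83.3% in Ddx18, 63.4% in Ddx5, 40.3% in Ddx50 and 32.2% in Ddx6. Ddx19a (56.8%) and Ddx19b (54.8%) shared windows with each other, Ddx3x shared 9.07% and Ddx3y 0.318%. Levels and ratios of these members are therefore uncertain. With 75-base windows over whole transcripts, 46 members shared none and 5 shared over 5%.

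Total counts ran from 4870813 to 7793244 in RNA libraries and from 5692064 to 22092434 in RPF libraries. Values below are CPM (counts scaled to library size) after TMM scaling, and libraries with the same replicate number deviated together in both assays, so DHPG was compared with basal within replicate numbers. The RNA library of DHPG replicate 5 has no basal partner and adds nothing to that comparison.

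The family was a mid-level group with a few abundant members. Its genes took 0.362% ± 0.0671 (SD, n = 4) of basal RNA counts and 0.521% ± 0.0307 (SD, n = 5) of basal RPF counts. After DHPG the shares were 0.352% ± 0.0560 and 0.505% ± 0.0387 (SD, n = 5 each), and the ranges of basal and DHPG libraries overlapped in both assays. Of the 54 members, 50 passed the filter on low counts in each assay. The median of these 50 was 10.1 CPM per kb of transcript in basal RNA, where all genes tested had 9.63, and 15.6 CPM per kb of coding sequence in basal RPF, where all genes had 17.4.

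**Figure D1:**
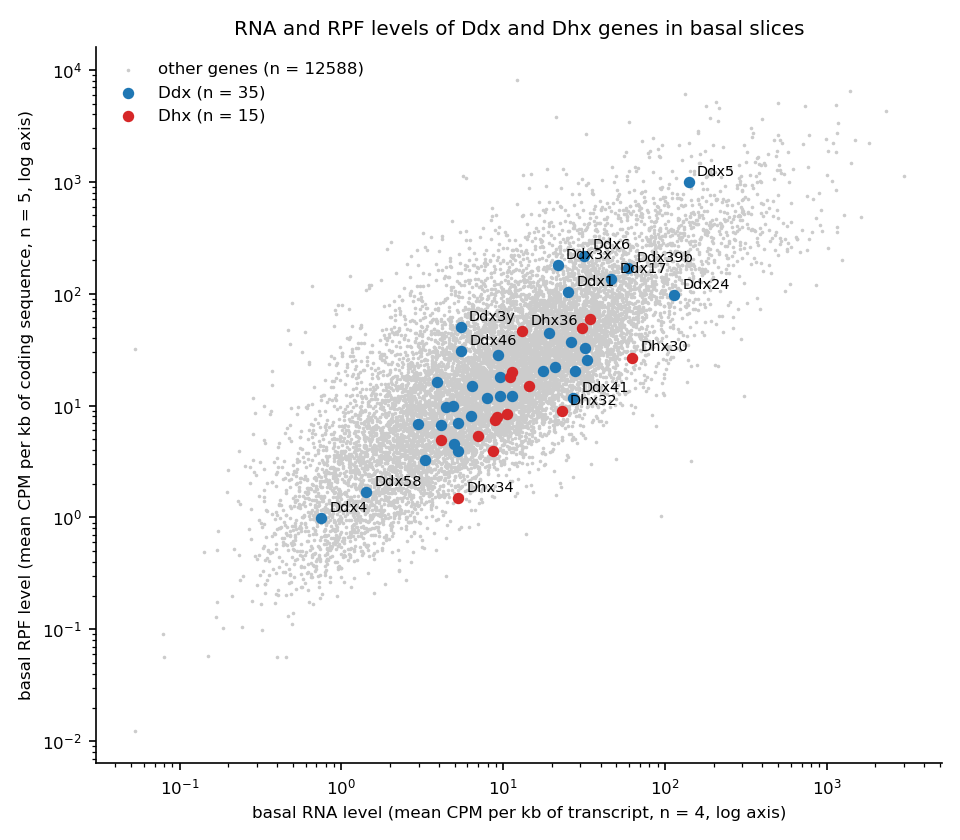
Basal RNA level (CPM per kb of transcript, mean of 4 libraries) against basal RPF level (CPM per kb of coding sequence, mean of 5 libraries) on log axes, with 35 Ddx genes in blue, 15 Dhx genes in red and all other genes tested in grey. Ddx5 stands highest on both axes among the members, and Ddx3y, Ddx3x and Ddx6 lie toward the upper edge of the cloud while Dhx34, Dhx32, Dhx30 and Ddx41 lie toward its lower edge.

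Ddx5 (p68), a coactivator of transcription and splicing on chromosome 11, 106780355 to 106789185 of mm10, was the most abundant member in both assays. It had 139.9 ± 64.2 CPM per kb in basal RNA (SD, n = 4) and 991 ± 79.96 in basal RPF (SD, n = 5), with 63.4% of its footprint windows shared as given above. In RNA the next places per kb were held by Ddx24 (114 ± 3.23), a nucleolar helicase, Dhx30 (62.4 ± 4.73), which serves mitochondrial ribosome assembly, and Ddx39b (59.01 ± 6.03), the UAP56 protein that links splicing to export. In RPF they were held by Ddx6 (219 ± 10.8), the decapping activator and translational repressor of P-bodies, Ddx3x (180.4 ± 15.2), which helps ribosomes start on structured leaders, and Ddx39b (169.6 ± 10.99). Only Ddx5 and Ddx39b were among the top 4 of both orders. Neighbours in the RPF order such as Ddx3x and Ddx39b lay within 1 SD of each other, whereas Ddx5 stood clear of the rest. The lowest tested member in both assays was Ddx4 (Vasa), a helicase of germ cells, at 0.747 ± 0.443 CPM per kb in RNA and 0.992 ± 0.301 in RPF. In RNA it was followed by Ddx58 (RIG-I), a sensor of viral RNA, at 1.42 ± 0.178, and by Ddx51 and Ddx31, both helicases of ribosome biogenesis, at 2.97 ± 0.182 and 3.29 ± 0.509. In RPF it was followed by Dhx34 at 1.48 ± 0.139, Ddx58 at 1.68 ± 0.263 and Ddx31 at 3.28 ± 0.443 (Dhx34 and Ddx58 lay within the SD of Ddx58).

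The other 4 members stayed under the filter in both assays. Ddx11, a DNA helicase of sister chromatid cohesion, had 5 to 10 counts per RNA library and 1 to 16 per RPF library. Ddx60, a cofactor of RNA sensing, had 1 to 6 and 1 to 11, and Dhx58 (LGP2), a relative of RIG-I, had 1 to 10 and 3 to 14. Ddx43, known from testis and tumours, had 0 counts in 3 of 9 RNA and 5 of 10 RPF libraries and at most 4 counts in any library. A count of 0 allows 3 counts, which is at most 0.616 CPM before TMM scaling in the shallowest RNA library and 0.527 in the shallowest RPF library (counting error only). Of the members grouped here under RNA sensing or germ line, Ddx43, Ddx60 and Dhx58 were thus at or near the detection limit. Ddx58 and Ddx4 could be tested.

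RPF density relative to RNA differed widely between members. The log2 RPF to RNA ratio per kb, with the median of all genes set at 0 in each replicate, ran from -2.67 in Dhx34 to 2.52 in Ddx3y (means of 4 basal replicates). The median of the 50 members was -0.39 and 19 of 50 lay above 0. Without the length correction the median was -0.090. The members' median SD between replicates was 0.24, close to the 0.30 of all genes.

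Cytoplasmic helicases of translation and mRNA storage had the highest median ratio of the roles, 1.62, and 5 of the 6 with that role lay above 0. Transcripts of these 5 held 36.1% to 45.2% GC and that of Dhx29 held 49.0%. The part of GC content in this order was not tested. Ddx3y, the Y-linked copy of Ddx3x, had ratios of 2.08, 3.01, 3.41 and 1.59 in replicates 1 to 4. Ddx3x had 2.01, 2.54, 3.13 and 1.67 and Ddx6 had 1.67, 2.13, 2.44 and 1.67. Every replicate lay far above 0 in these 3 genes, and replicate 3 was the highest in each. The 3 were among those named for a high mean over these replicates, which favours replicates above 0. The ratio of Ddx6 rests in part on length, since its transcript has 6065 bases and its coding sequence 1449. Its mean level was 193 CPM in basal RNA and 304 in basal RPF. Ddx1, a helicase of tRNA ligation and RNA granules, had a mean of 1.27 ± 0.55 (SD, n = 4) and Dhx36, which unwinds G-quadruplexes, 1.11 ± 0.72. Dhx29, which binds the small ribosomal subunit during scanning, was the exception at -1.06 ± 0.41.

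Splicing helicases covered nearly the whole range, from -2.07 to 2.105, with 6 of 13 above 0. Ddx5 had ratios of 1.57, 2.37, 2.80 and 1.68 and Ddx46, which acts in U2 snRNP assembly, had 1.33, 2.15, 2.66 and 0.78. Ddx41, at the other end, had -1.81, -2.17, -2.35 and -1.94, and Dhx16, which drives spliceosome activation, had a mean of -2.06 ± 0.26 (SD, n = 4). The replicate values of Ddx5 and Ddx41 did not overlap, which choosing the highest and the lowest mean of this role favours. Among the 16 ribosome biogenesis helicases 5 lay above 0 and the median was -0.42, with Ddx21, a nucleolar helicase of rRNA transcription and processing, the highest at 1.24 ± 0.24 and Ddx50, its paralog, the lowest at -1.19 ± 0.51 (40.3% of its windows shared). Both mitochondrial helicases were below 0, Dhx30 at -2.08 ± 0.31 and Ddx28 at -0.81 ± 0.30. Dhx34, a factor of nonsense-mediated decay, and Dhx32, whose role is poorly known, had means of -2.67 ± 0.41 and -2.20 ± 0.10.

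**Figure D2:**
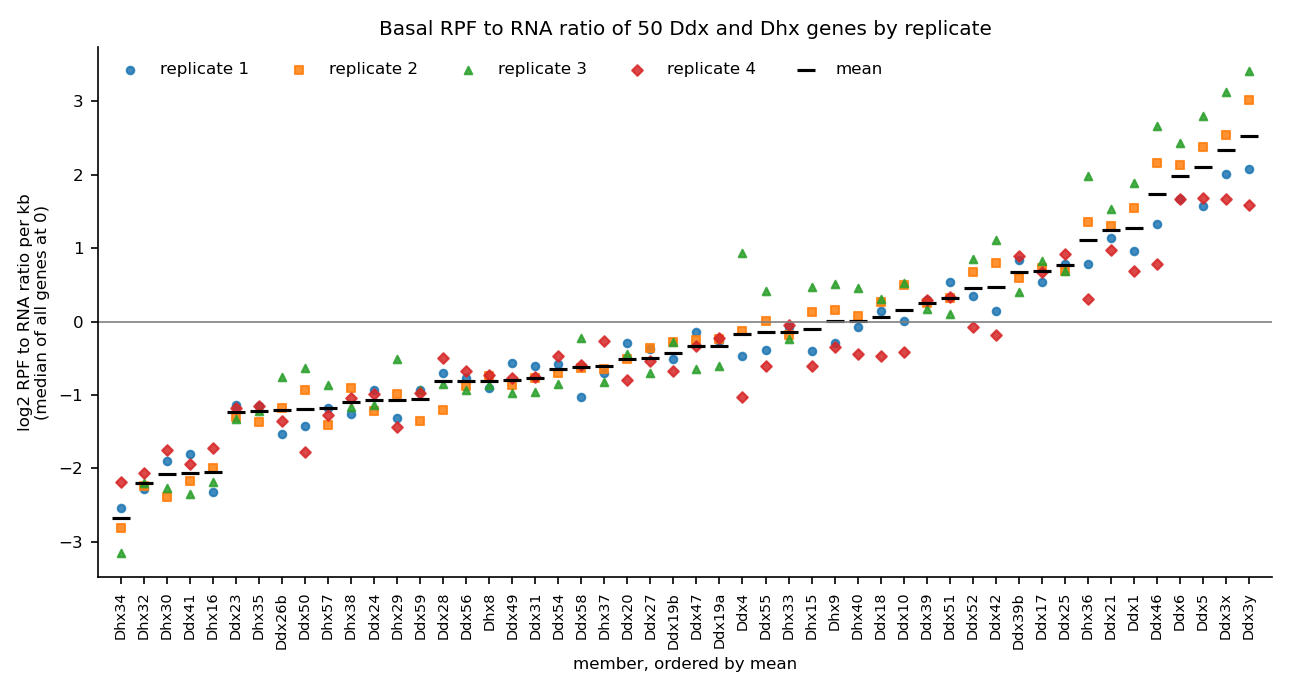
Log2 RPF to RNA ratio per kb of 50 members in basal slices, with the median of all genes at 0. Each symbol is 1 of 4 replicates and the bar is their mean; the order runs from Dhx34 (-2.67) to Ddx3y (2.52), and the replicates fan out most among members on the right.

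The RPF to RNA ratio of close paralogs was compared replicate by replicate in 4 pairs. Ddx5 exceeded Ddx17 (p72), its partner in transcription and splicing, by 1.41 ± 0.47 on the log2 scale (SD, n = 4) and in 4 of 4 replicates. Ddx39 lay below Ddx39b in 4 of 4 replicates, by a mean difference of -0.43 ± 0.17. For both pairs the two-sided exact sign-flip permutation test gave p = 0.125, the smallest that 4 replicates allow (adjusted p = 0.25 over the 4 pairs). Ddx3x minus Ddx3y was -0.19 ± 0.24 (exact permutation p = 0.375, adjusted p = 0.5) and Ddx19a minus Ddx19b 0.10 ± 0.33 (exact permutation p = 0.625), smaller than their spread between replicates. In CPM, Ddx3x stood 3.69 to 4.89 times above Ddx3y in basal RNA and 3.43 to 3.83 times in basal RPF. Ddx5 stood 1.42 to 3.01 times above Ddx17 in RNA and 6.09 to 7.71 times in RPF.

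RNA levels of some members varied widely between replicates of the same treatment, while their RPF levels were steady. Over the 50 members tested, the median SD of log2 CPM between libraries was near that of all genes. It was 0.22 in basal RNA (all genes 0.26) and 0.26 in DHPG RNA (all genes 0.23). In RPF it was 0.11 in basal (all genes 0.15) and 0.13 in DHPG libraries (all genes 0.16). Ddx3x had 129, 74.6, 47.5 and 156 CPM in basal RNA replicates 1 to 4 and 108, 61.8, 60.2, 160.0 and 126 in DHPG replicates 1 to 5. In RPF it had 379.7, 318, 315, 363 and 361 CPM in basal and 370.4, 303, 319, 366 and 347 in DHPG replicates 1 to 5. RNA replicates 2 and 3 were thus low in both treatments, whereas the basal RPF libraries ranged over 1.21 times. Ddx3y showed the same order, with 32.2, 15.2, 10.96 and 42.2 CPM in basal RNA and 101, 92.7, 91.5, 94.8 and 101 in basal RPF. For Ddx5 the values were 721, 343, 263 and 664 CPM in basal RNA and 1915, 1580.0, 1682, 1898 and 1771 in basal RPF. Ddx24, by contrast, had steady RNA, with 335, 351, 357 and 354 CPM.

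**Figure D3:**
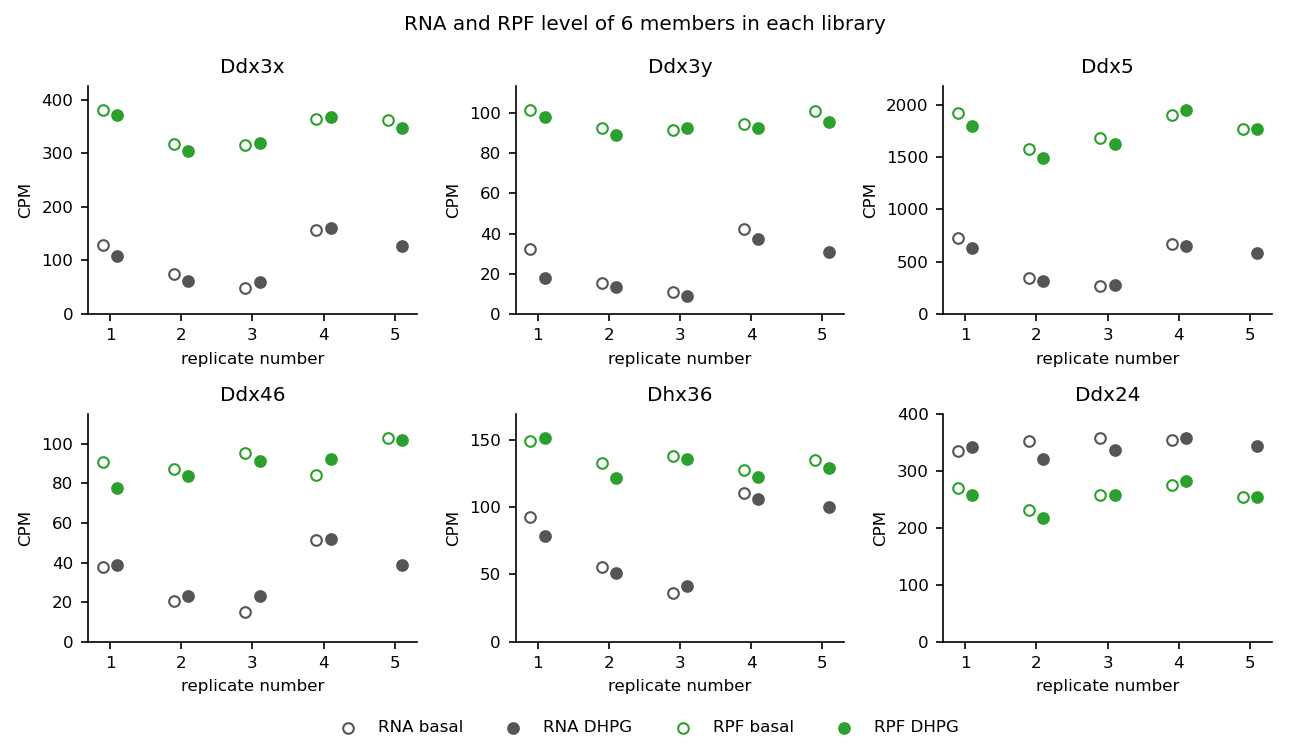
CPM of 6 members in each RNA library (grey) and RPF library (green), basal (open) and DHPG (filled), by replicate number, with axes from 0. RNA of Ddx3x, Ddx3y, Ddx5, Ddx46 and Dhx36 was low in replicates 2 and 3 of both treatments, whereas their RPFs and both values of Ddx24 moved little.

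Basal RNA of 10 of 50 members (20%) ranged over 2-fold between the 4 libraries, against 16.7% of all genes tested, and basal RPF of 1 member, Ddx4, did so between 5 libraries (2%, against 5.72% of all genes). The 10 were Ddx4, Ddx3y, Ddx46, Ddx3x, Dhx36, Ddx5, Ddx42, Ddx50, Ddx1 and Dhx15, with ranges of 2.096 to 7.62 times. Replicates 2 and 3 were the lowest basal libraries in all 10, and after DHPG the same numbers were the lowest in 9, Ddx4 being the exception. The same held for 17 of the other 40 members in basal RNA and for 17 of these 40 in DHPG RNA. Transcripts of these 10 held 36.1% to 47.5% GC (median 43.2%), and those of the other 40 held 42.8% to 59.6% (median 50.4%). Over the 50 members, the SD of basal log2 RNA had a Spearman rho of -0.67 with GC content, and -0.69 in DHPG RNA, while in RPF the rho was 0.21 and 0.45. These are descriptions across genes that share the same libraries.

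GC content also ordered the members within single RNA libraries. Each member's log2 CPM relative to its mean over the 4 basal RNA libraries had a rho with GC of -0.66, 0.46, 0.81 and -0.80 in replicates 1 to 4. The same rho over all genes was -0.47, 0.37, 0.67 and -0.60, so the order was not particular to helicases. Offsets sum to 0 over the 4 libraries, so these values are not independent. Members poor in GC were low in replicate 3 and high in replicate 4, and members rich in GC such as Dhx34 did the reverse, with 21.1, 23.5, 28.9 and 17.4 CPM. The basal RPF to RNA ratio had a rho of -0.64 with GC over the 50 members and -0.43 over 12638 genes. What part GC content played in the members' RNA levels or ratios was not tested.

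**Figure D4:**
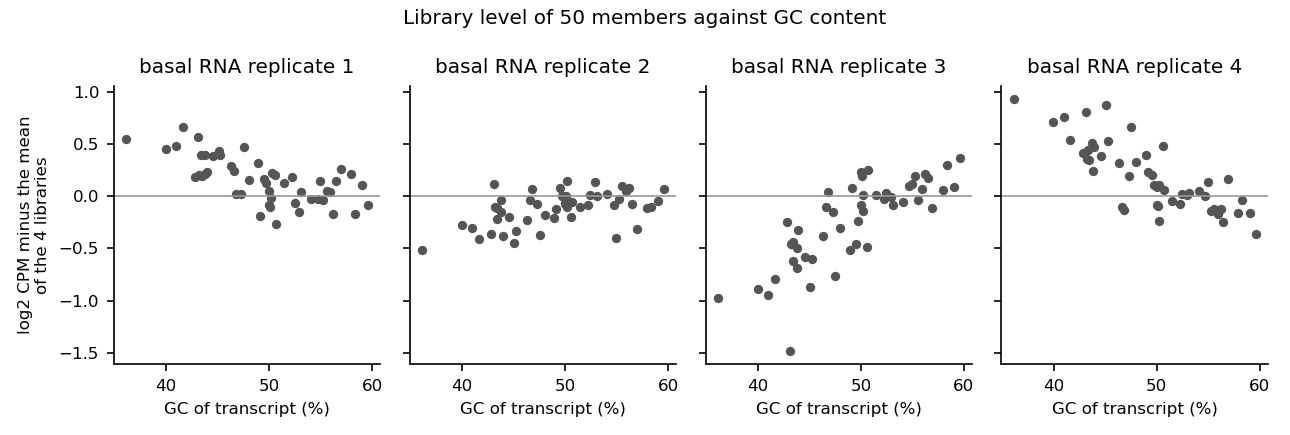
Log2 CPM of 50 members in each basal RNA library minus the member's mean over the 4 libraries, against the GC content of its transcript. Points fall with GC in replicates 1 and 4 and rise with GC in replicates 2 and 3, most steeply in replicate 3.

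The comparison of DHPG with basal slices asks whether 5 min of receptor stimulation changed the members' RNA, RPFs or the ratio of both. No member passed the threshold in any of the 3 tests by edgeR. In RNA 0 of 50 passed an adjusted p of 0.01, where 0.00773% of all genes did. In RPF 0 of 50 passed 0.05, where 0.22% of all genes did, and in the ratio 0 of 50 passed 0.05, where 0% did. DESeq2 with replicate as a block also called 0 members in RNA and RPF, and limma called 0 in the ratio. ComBat by replicate number followed by DESeq2 called 0 of 27 members with an adjusted p in RNA, where 3.3% of 6143 genes were called, and in RPF 2 of 20, Ddx5 and Dhx15 (10%), where 9.53% of 4502 genes were called. DESeq2 gave the remaining members no adjusted p in that fit. At an unadjusted p under 0.05, 3 members were lower and 0 higher in RNA (6% and 0%, against 2.81% and 5.2% of all genes), 3 lower and 0 higher in RPF (against 4.21% and 6.55%), and 0 lower and 2 higher in the ratio (against 3.63% and 3.14%).

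Although single members did not pass, more of them lay below 0 than above it in both assays. In RNA the fitted log2 fold change was negative in 37 of 50 members (74%, against 47.9% of all genes), with a median of -0.062 where all genes had 0.0068. In RPF it was negative in 38 of 50 (76%, against 48.6%), with a median of -0.039 where all genes had 0.0031. By replicate pair the members' median change in RNA was -0.10, -0.13, -0.052 and -0.031 in pairs 1 to 4, below 0 in all 4. In RPF it was -0.072, -0.063, -0.055, 0.011 and -0.0041 in pairs 1 to 5, with 41 of 50 members lower in pair 2 and 23 of 50 in pair 4. The RPF medians of pairs 4 and 5 lay near 0. In the ratio 19 of 50 members lay below 0, against 50.5% of all genes, and the median was 0.026. Without the replicate block, 32 of 50 members (64%) lay below 0 in RNA, and 26 of 50 (52%) in the ratio, whose median became -0.0083.

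**Figure D5:**
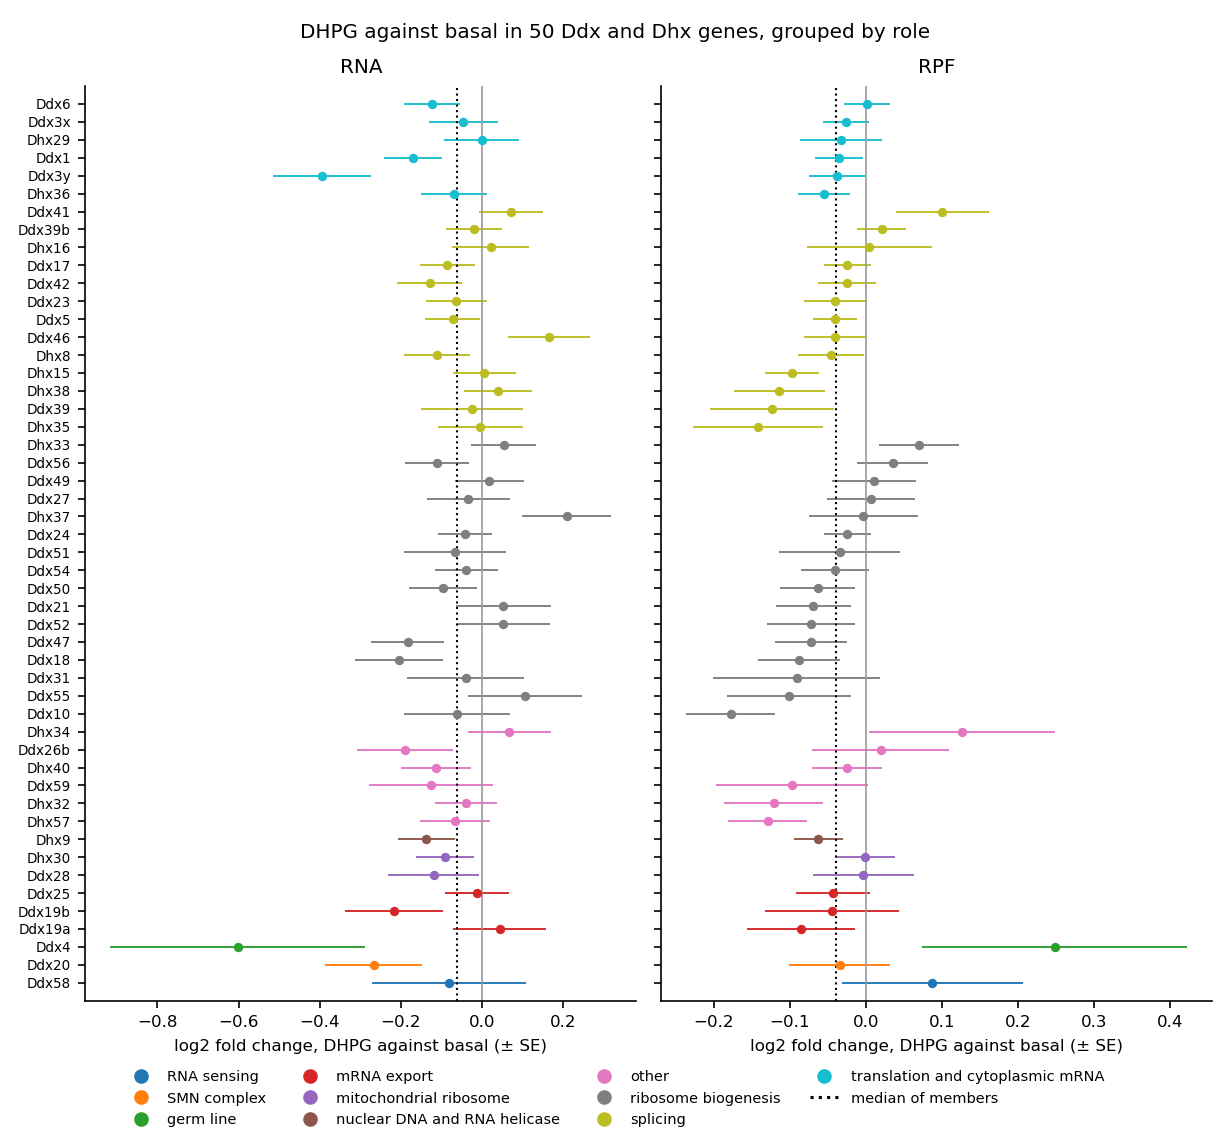
Fitted log2 fold change of DHPG against basal (points, with SE bars) for 50 members in RNA (left) and RPF (right), grouped and coloured by role; the x axes differ in range. Most points lie left of 0 in both panels, the dotted line marks the members' median (-0.062 in RNA and -0.039 in RPF), and the longest bars belong to Ddx4.

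Lower RNA in all 4 pairs was seen in 9 members (18%, against 6.97% of all genes) and higher RNA in all 4 pairs in 3 (6%, against 8.67%). The 9 were Ddx1, Ddx3y, Ddx6, Ddx17, Ddx18, Ddx19b, Ddx56, Dhx9 and Dhx40, and the 3 were Ddx46, Dhx34 and Dhx37. The DHPG and basal RNA libraries overlapped in each of the 50, where 0.302% of all genes had every DHPG library below and 0.209% above the basal ones. The smallest p in RNA belonged to Ddx3y (chromosome Y, 1260771 to 1286629), whose basal libraries had 32.2, 15.2, 10.96 and 42.2 CPM and DHPG libraries 17.8, 13.4, 9.04, 37.4 and 30.9. The groups overlapped across almost their whole range, since both were low in replicates 2 and 3, and within pairs 1 to 4 the log2 changes were -0.84, -0.18, -0.27 and -0.17. Its log2 fold change was -0.39 (SE 0.12, edgeR adjusted p = 0.536), lower in 4 of 4 pairs, and pair 1 was the largest: without replicate 1 it was -0.21. In the other Y-linked genes tested, the RNA log2 fold change was 0.026 in Eif2s3y (edgeR adjusted p = 0.975), -0.10 in Kdm5d (adjusted p = 0.835) and -0.0090 in Uty (adjusted p = 0.989), and the differences from Ddx3y were not tested. In Ddx3x the RNA change was -0.045 (SE 0.086, edgeR adjusted p = 0.931).

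Ddx1 had 152, 91.9, 76.4 and 168 CPM in basal RNA and 134, 83.5, 70.95, 143 and 146 in DHPG RNA, lower in 4 of 4 pairs, with a log2 fold change of -0.17 (SE 0.072, edgeR adjusted p = 0.578). Ddx20 (Gemin3), the helicase of the SMN complex that assembles spliceosomal snRNPs, had 18.5, 17.3, 16.4 and 20.9 CPM in basal and 15.4, 12.8, 16.5, 15.9 and 22.9 in DHPG RNA. It was lower in 3 of 4 pairs and its highest value was the DHPG library without a partner. Its log2 fold change was -0.27 (SE 0.12, edgeR adjusted p = 0.598). Ddx47, which acts in rRNA processing, had 43.5, 43.7, 54.02 and 43.3 CPM in basal and 40.00, 43.9, 38.2, 40.5 and 39.9 in DHPG RNA, and only basal replicate 3 stood apart. The log2 fold change of Ddx47 was -0.18, and without replicate 3 it was -0.074. Dhx9 (RNA helicase A), a nuclear helicase that resolves R-loops and inverted repeats, had 199.8, 133, 102 and 199 CPM in basal and 172, 119.5, 97.2, 185 and 168 in DHPG RNA. It was lower in 4 of 4 pairs at -0.14 (SE 0.070, edgeR adjusted p = 0.639).

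In RPF, 5 members were lower in all 5 pairs (10%, against 4.72% of all genes) and 2 were higher (4%, against 5.15%). The 5 were Ddx10, Dhx8, Dhx15, Dhx32 and Dhx57, and the 2 were Ddx4 and Ddx58, both at low counts. The smallest p belonged to Ddx10 (chromosome 9, 53098635 to 53248053), a nucleolar helicase of small subunit processing, with 25.1, 24.1, 27.7, 22.1 and 27.2 CPM in basal and 21.2, 20.8, 25.7, 20.8 and 22.5 in DHPG replicates 1 to 5. Each DHPG library was below its own basal library, although the groups overlapped. The log2 fold change of Ddx10 was -0.18 (SE 0.059, edgeR adjusted p = 0.226), and its RNA gave -0.061 with 2 of 4 pairs lower. Dhx15, which releases the spliced lariat and frees the spliceosome for reuse, was the sole member whose DHPG RPF libraries all lay below all basal ones (2% of members, against 0.235% of all genes), and 0 lay all above them (0%, against 0.159%). Its basal RPF libraries had 121.4, 115.4, 113.8, 109.6 and 109.8 CPM and its DHPG libraries 108.97, 103.3, 108.98, 104.1 and 106.3, so the groups were separated by less than 1 CPM. The log2 fold change of Dhx15 was -0.10 (SE 0.036, edgeR adjusted p = 0.303), and ComBat with DESeq2 gave -0.10 with an adjusted p of 0.0393 from DESeq2 (range over all alternatives 0.0393 to 0.99997). In RNA Dhx15 was lower in 2 of 4 pairs, at 0.0061 (SE 0.078, edgeR adjusted p = 0.991).

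Dhx57, a DEAH-box protein of poorly known function, had 37.9, 30.4, 31.5, 36.8 and 37.2 CPM in basal and 32.4, 28.7, 29.7, 31.6 and 34.7 in DHPG RPF. It was lower in 5 of 5 pairs with a log2 fold change of -0.13 (SE 0.052, edgeR adjusted p = 0.349), and the groups overlapped. Dhx9 had 257, 235, 236, 247 and 244 CPM in basal and 239, 211, 227, 256 and 236 in DHPG RPF, lower in 4 of 5 pairs, at -0.062 (SE 0.032, edgeR adjusted p = 0.488), or -0.038 without replicate 2. RPF of Ddx1, whose RNA was given above, was lower in 4 of 5 pairs at -0.035 (SE 0.032, edgeR adjusted p = 0.744). Dhx38 (PRP16), which remodels the spliceosome before its second step, was lower in 4 of 5 RPF pairs at -0.11 (SE 0.060, edgeR adjusted p = 0.501). Without replicate 1 its value was -0.065. RPF of the most abundant members moved little: the log2 fold change was -0.040 in Ddx5, 0.0016 in Ddx6, -0.026 in Ddx3x, 0.021 in Ddx39b and -0.024 in Ddx17, each with an SE of 0.029 to 0.032. None of these 5 passed by edgeR.

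By role, the helicases of translation and cytoplasmic mRNA were below 0 in 6 of 6 in RNA (median -0.10) and 5 of 6 in RPF (median -0.034). Of these 6, Ddx1, Ddx3y and Ddx6 were lower in 4 of 4 RNA pairs, Dhx36 in 3 and Ddx3x and Dhx29 in 2. Dhx29 lay at -0.00014 in RNA (SE 0.092). Helicases of ribosome biogenesis were below 0 in 10 of 16 in RNA (median -0.039) and 12 of 16 in RPF (median -0.051). Those of splicing were below 0 in 8 of 13 in RNA (median -0.020) and 10 of 13 in RPF (median -0.040). The export helicases Ddx19a, Ddx19b and Ddx25 were below 0 in 2 of 3 in RNA (median -0.011) and 3 of 3 in RPF (median -0.044). By edgeR, no role held a member past the threshold in either assay. Ddx members had a median of -0.067 in RNA and -0.038 in RPF, and Dhx members -0.0034 and -0.045.

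In the test of the RPF to RNA ratio, Ddx3y had the smallest p, with 0.35 (SE 0.11, edgeR adjusted p = 0.645), or 0.17 without replicate 1. This value carries its RNA change, since its RPF log2 fold change was -0.038, from 101, 92.7, 91.5, 94.8 and 101 CPM in basal to 98.1, 89.1, 92.7, 92.7 and 95.5 in DHPG libraries. Ddx4 had 0.86 (SE 0.33, edgeR adjusted p = 0.680) on few reads, 3 to 25 counts per RNA library and 15 to 42 per RPF library. Ddx1 had 0.14, Ddx6 0.13 and Ddx46 -0.19 (SE 0.068, 0.064 and 0.10), none of them past the threshold. The value of Ddx46 was -0.095 without replicate 3 and -0.31 without replicate 4. The direction of Ddx46, opposite to the other 4, followed its RNA, which was higher in 4 of 4 pairs: 37.9, 20.4, 15.1 and 51.4 CPM in basal and 38.97, 23.3, 23.2, 51.99 and 38.5 in DHPG libraries.

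Helicases outside the Ddx and Dhx names and the members' protein partners were read beside them. Of 24 other RNA helicases listed, 11 of 19 tested were below 0 in RNA and 13 of 18 in RPF, with medians of -0.087 and -0.037, and 0 passed by edgeR (at an unadjusted p under 0.05, 3 were lower and 0 higher in each assay). Eif4a1, the DEAD-box helicase of the cap-binding complex, had an RNA log2 fold change of -0.18 (SE 0.065, edgeR adjusted p = 0.545, lower in 4 of 4 pairs) and an RPF value of -0.068 (SE 0.030, edgeR adjusted p = 0.393, lower in 4 of 5). Its basal level, 293 CPM per kb in RNA and 497 in RPF, lay between Ddx5 and the neuronal paralog Eif4a2 in RNA (925), and Ddx5 exceeded both in RPF. Eif4a2 had -0.12 in RNA and -0.051 in RPF, and Eif4a3, of the exon junction complex, -0.10 and -0.044. Skiv2l2 (Mtr4), the helicase of the nuclear exosome, had -0.20 in RNA and -0.11 in RPF, lower in 5 of 5 RPF pairs, and the spliceosomal Snrnp200 had -0.15 in RNA. Of 41 partner genes, 22 were below 0 in RNA and 32 in RPF, with medians of -0.0071 and -0.033 and 0 passing in either (at an unadjusted p under 0.05, 0 and 2 were lower and 1 and 0 higher). The smallest p belonged to Eif4enif1, the partner of Ddx6 that carries eIF4E, in RNA (0.20) and to Thoc7, of the export complex that binds Ddx39b, in RPF (-0.12). Of the 17 interferon genes listed, which are regulated through the sensors Ddx58 and Dhx58, 11 were tested in RNA and 13 in RPF, and 0 passed (at an unadjusted p under 0.05, 1 higher and 1 lower in RNA and 0 in RPF).

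Markers of other cell types were read in the same libraries. All 8 oligodendrocyte markers were above 0 in RNA and 6 of 8 in RPF (1 past the threshold in RPF), with a summed level of 2643 to 5617 CPM in basal and 3053 to 6416 in DHPG RNA libraries. At an unadjusted edgeR p under 0.05, 5 of the 8 were higher in RNA and 4 in RPF, and 0 were lower. Of all genes, 5.2% were higher in RNA and 6.55% in RPF. Microglia markers were above 0 in 4 of 8 in RNA and 8 of 8 in RPF, astrocyte markers in 6 of 8 and 8 of 8, and endothelial markers in 3 of 8 and 0 of 8, none of them past the threshold. Of the thalamus markers, 4 of 5 tested in RNA were above 0 and 1 passed (against 0.00773% of all genes). In RPF 6 of 7 tested were above 0, with a median log2 fold change of 0.31, and 4 passed (against 0.22% of all genes). The 1 in RNA was Prkcd (log2 fold change 0.70, edgeR adjusted p = 0.0044), the only gene of all those tested in RNA to pass. The summed levels of these markers in RPF were 469 to 693 CPM in basal and 545 to 739.7 in DHPG RPF libraries for microglia, 4959 to 5996 CPM in basal and 5172 to 6369 in DHPG RPF libraries for astrocytes, 44.7 to 69.8 CPM in basal and 42.1 to 66.1 in DHPG RPF libraries for endothelium and 221 to 276 CPM in basal and 237 to 312 in DHPG RPF libraries for thalamus, so basal and DHPG ranges overlapped in each. None of these lists had a marker at 0 in all libraries. CA3 markers, 2 of 6 above 0 in RNA and RPF, and pyramidal markers, 7 of 7 above 0 in RNA and 5 of 7 in RPF, had no marker past the threshold. Dentate granule markers were above 0 in 5 of 6 in RNA and 3 of 6 in RPF, and interneuron markers in 2 of 8 and 4 of 8 (1 past the threshold in RPF). Of 6 choroid plexus markers 1 was tested in RNA and 2 in RPF. The part of these cell types in the members' values was not tested.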

How the data were processed

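The authors deposited RSEM expected counts per gene, as whole numbers without normalization, in separate RNA and RPF tables, made on mm10 after adapter, rRNA, tRNA and duplicate removal and unique mapping (cutadapt, Bowtie2 and TopHat2 per the labels). RPFs were counted on coding sequence without its ends. Another 12 columns, of replicates 6 to 8, belong to no sample and were not used.

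R 4.3.3 with edgeR 4.0.16 (TMM, filterByExpr) compared DHPG with basal by the quasi-likelihood F test, blocking on replicate number, adjusted by Benjamini-Hochberg over all genes (adjusted p under 0.01 in RNA, 0.05 in RPF). The RPF to RNA ratio was the interaction of assay and treatment over all 19 libraries (0.05). Log2 CPM used a prior count of 2. Levels per kb used GENCODE vM21 lengths (99.5% of symbols matched), with 30 bases trimmed at each end of coding sequence. The block was used because same-numbered libraries deviated together in every pair (correlations of 0.31 to 0.74 in RNA and 0.26 to 0.52 in RPF). In RNA replicate 2 (0.31), however, the DHPG library correlated at least as closely with a basal library of another number. In every other pair the basal library of the same number was the closest. Alternatives used DESeq2 1.42.0, sva 3.50.0 and limma 3.58.1. Steps were tested on simulated data.

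Members, roles and lists were chosen with earlier results of these data known. Members named were the 5 with the smallest p in each test, the highest and lowest 4 by level and by ratio, named neuronal, paralog and sensor genes, and the untested ones. Others were named after their values were seen.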

Additional observations from a re-analysis of the deposited data

Results flagged for a closer look

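A sample far from the rest of its group, by Dixon's 95% critical value, was found in 8 of 140 groups of values looked at (34 members and the family's share, in 4 groups of libraries). Chance flags about 1 in 20 groups, so this number is close to what chance gives. In RNA, Ddx47 had 54.02 CPM in basal RNA replicate 3, against 43.3 to 43.7 in the other libraries of its group. Dhx30 had 211 CPM in basal RNA replicate 4, against 245 to 249 in the other libraries of its group. Ddx60 had 0.141 CPM in DHPG RNA replicate 4, against 0.673 to 0.853 in the other libraries of its group, all at single-digit counts. In RPF, Ddx58 had 5.81 CPM in basal RPF replicate 3, against 4.04 to 4.38 in the other libraries of its group, and it had 6.46 CPM in DHPG RPF replicate 3, against 4.10 to 4.63 in the other libraries of its group, so the same replicate number stood out in both treatments for this sensor of viral RNA. Dhx32 had 17.4 CPM in basal RPF replicate 2, against 19.97 to 20.8 in the other libraries of its group. Ddx47 had 41.4 CPM in DHPG RPF replicate 2, against 46.5 to 47.6 in the other libraries of its group. Dhx58 had 1.32 CPM in DHPG RPF replicate 4, against 0.470 to 0.552 in the other libraries of its group, again at low counts. No flagged member had passed a threshold.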

How the results depend on the processing

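No alternative turned the members' median below 0 into one above it in RNA or RPF, and none but 1 changed a count of members past a threshold. ComBat by replicate number with DESeq2 called 2 of 20 members in RPF, Ddx5 and Dhx15 (10%, against 9.53% of genes with an adjusted p), where edgeR with the replicate block called 0. Members below 0 in RNA made up 82% with each library's GC and length trend removed, 64% without the replicate block and 66% to 76% with a replicate left out, against 74%. In the RPF to RNA ratio they made up 52% without the block, where the median log2 change turned to -0.0083, and 36% to 44% with a replicate left out, against 38%, and the median of 0.026 became 0.039 without replicate 4. Leaving out the block changed no count of calls. With the median length of a gene's coding transcripts the members' median level was 12.5 CPM per kb in RNA and 19.4 in RPF, and their median basal ratio was -0.090 both without length correction and with RNA per kb of coding sequence. The causes of these shifts were not tested. The remaining 126 values over members under alternatives stayed within the limits set for a change. Fold changes of single members were followed under alternatives only for the 5 with the smallest p in each test. Of these values, 168 kept their sign without passing the threshold, and none reversed. Members with fold changes near 0 were not followed, and a small p makes a reversal less likely. In 1 of the values followed the threshold was passed, by Dhx15 in RPF under ComBat with DESeq2. Ddx5, which passed in the same fit, was not among the members followed in RPF. No limit was set on the size of these shifts. Basal ratios of single members were followed for the highest 4 and the lowest 4 only. Among these, 12 values moved by more than the member's SD between replicates, and a change of sign was not looked for. Leaving out members with over 5% shared windows was chosen after seeing the data. Depth limits Ddx4 and the 4 untested members, which rest on few counts in both assays.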
